A study of Mus musculus with 11 samples.

Results

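The 10 germ cell and meiosis genes described here are Dazl, Mael, Hormad1, Stk31, Taf7l, Slc25a31, Asz1, Sycp3, Tex101 and Tdrd1. They were chosen as a named list, by matching each symbol to 1 Ensembl identifier in the deposited table, and all 10 were found among its 39179 gene identifiers. Earlier results of these data were known when this list and the other gene lists below were chosen. Counts set beside the share of all genes are therefore not an independent test. Transcripts were measured by RNA-seq in Mettl3-KO and WT mouse cells of strain C57BL/6, as embryonic stem cells (ESCs) and as embryoid bodies (EBs), the clumps that ESCs form as they differentiate. Mettl3 is the enzyme that deposits N6-methyladenosine on messenger RNA, and the series asks what its loss does to the exit from the naive pluripotent state. Mettl3-KO ESCs had 3 libraries (A, B and C) and WT ESCs had 3 libraries under the same letters. Mettl3-KO EBs and WT EBs had 2 libraries each (A and B).

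Both ESC groups were kept without serum in LIF with inhibitors of GSK3 and MEK. EBs of both genotypes were grown without attachment in serum for 8 to 21 days, and the labels give no day for a single library. The design text speaks of KO and WT cell lines and does not say how many clones each stands for. Replicate C of both ESC genotypes was measured beside a protein assay by SILAC. Mettl3 itself was at 138, 133 and 131 normalized counts in KO ESCs and at 422, 392.3 and 425 in WT ESCs, and at 154 and 147 in KO EBs and 399 and 368 in WT EBs. It fell by 1.62 on the log2 scale in KO ESCs (limma, adjusted p = 0.0123) and by 1.34 in KO EBs (adjusted p = 0.0143), and 18.4% of its exon bases lie over Tox4 on the opposite strand. Leaving out any 1 of the 8 libraries lettered A or B ended the ESC call (adjusted p between 0.0736 and 0.102) and ended the EB call for 4 of them.

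The 2 ESC replicate C libraries held 3026837 and 3075007 reads in genes, and the other 8 held 8523027 to 15426894. Across genes, a C library correlated at r of 0.653 to 0.692 with A or B of the same genotype, where A against B gave 0.990 in both ESC genotypes. A count of 3 reads corresponds to 8.33 and 9.88 normalized counts in the C libraries and to 1.63 to 2.72 in the others, which covers counting error only. The 8 ESC markers (Pou5f1, Nanog and others) summed to 42881 to 47628 normalized counts in KO ESCs and 34242 to 76187 in WT ESCs, and to 26227 and 29883 in KO EBs and 17281 and 19042 in WT EBs. The 10 fibroblast markers summed to 22638 and 22864 in KO ESC A and B and 17803 and 17629 in WT ESC A and B, but to 2372 in KO ESC C and 4776 in WT ESC C. The 9 somatic gonad markers, mostly Star, summed to 162, 203 and 52.8 in KO ESCs and 138, 134 and 52.7 in WT ESCs, and to 209.8 and 218 in KO EBs and 133 and 158 in WT EBs. The part of these markers in the results below was not tested, and ESC values are given per library and within each batch (A with B, and C).

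Germ cells protect their genome with piRNAs, short RNAs that guide Piwi proteins to transposon transcripts and that are made in a perinuclear body called nuage. They then build a protein axis along each chromosome, pair the homologues through the synaptonemal complex and recombine them in meiosis. Many genes of this programme have CpG-rich promoters that DNA methylation keeps silent in somatic cells. In mouse ESCs a Polycomb complex with E2F6 and the E-box binding proteins MGA and MAX holds many genes of the programme down. Naive ESCs in inhibitor medium have little DNA methylation, and many germ cell genes are transcribed in them at a low level. In these bulk samples, fewer expressing cells and less RNA per cell cannot be told apart.

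The bases before the start of transcription are shown for the 3 genes that fell together in KO ESCs and for Tdrd1, the 1 member whose mean was higher in KO ESCs. Each run holds the 250 bases before the start, 5′ to 3′ on the gene's strand, from RefSeq promoter windows of build GRCm38.p6. Capitals mark the E-box CACGTG and the octamer GCATGCGC with its reverse complement GCGCATGC, whose matches can overlap.
Mael, chr1:166238745-166238994, minus strand: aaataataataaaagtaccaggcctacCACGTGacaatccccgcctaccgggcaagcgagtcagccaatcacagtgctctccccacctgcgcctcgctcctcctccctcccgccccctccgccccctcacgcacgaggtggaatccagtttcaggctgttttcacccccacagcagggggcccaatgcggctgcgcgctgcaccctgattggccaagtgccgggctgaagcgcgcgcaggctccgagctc
Hormad1, chr3:95559427-95559676, plus strand: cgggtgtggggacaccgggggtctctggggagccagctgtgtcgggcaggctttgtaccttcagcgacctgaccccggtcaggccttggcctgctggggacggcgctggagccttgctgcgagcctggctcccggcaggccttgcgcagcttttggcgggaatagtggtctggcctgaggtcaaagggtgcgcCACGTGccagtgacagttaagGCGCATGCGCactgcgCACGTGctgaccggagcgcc
Dazl, chr17:50293621-50293870, minus strand: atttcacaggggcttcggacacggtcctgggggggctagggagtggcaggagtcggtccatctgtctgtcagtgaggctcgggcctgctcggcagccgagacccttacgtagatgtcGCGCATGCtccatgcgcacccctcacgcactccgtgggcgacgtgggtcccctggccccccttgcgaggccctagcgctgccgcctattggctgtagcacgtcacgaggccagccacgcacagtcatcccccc
Tdrd1, chr19:56825959-56826208, plus strand: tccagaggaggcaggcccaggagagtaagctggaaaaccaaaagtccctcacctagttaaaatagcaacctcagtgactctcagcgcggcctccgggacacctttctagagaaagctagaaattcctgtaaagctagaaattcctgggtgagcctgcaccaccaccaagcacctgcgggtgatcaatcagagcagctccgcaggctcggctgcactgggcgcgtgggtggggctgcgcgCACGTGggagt

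RefSeq windows of 250 bases before and 50 after the start were found for all 10 genes. Of these, 7 held CACGTG in at least 1 window, against 8.09% of 27025 genes and 9.18% of 16522 protein-coding genes. In the first-listed window of each gene, the E-box began 223 bases before the start in Mael, 57 and 20 in Hormad1, 93 in Slc25a31, 55 in Stk31, 64 and 43 in Sycp3, 49 in Taf7l and 11 in Tdrd1. Other windows, from other starts, put it 59 and 22 bases before the start in Hormad1, 120 in Stk31 and 77 in Tdrd1, and 1 further Tdrd1 window had none. The windows of Dazl, Asz1 and Tex101 did not hold these letters. It stood in genes that fell in KO ESCs (Mael and Hormad1) and in Tdrd1, and Dazl, which fell, had none. The octamer GCATGCGC, on either strand, was in 4 of the 10 (Dazl, Hormad1, Slc25a31 and Stk31), against 3.05% of all genes and 4.11% of protein-coding genes, and was searched after the letters had been seen. GCGGGA or TCCCGC, the core of an E2F6 site, was in 4 of the 10, against 22.0% and 29.2%. The median number of CpGs in a gene's richest window was 23 over the 10 genes, against 8 over all genes and 15 over protein-coding genes.

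**Figure D1:**
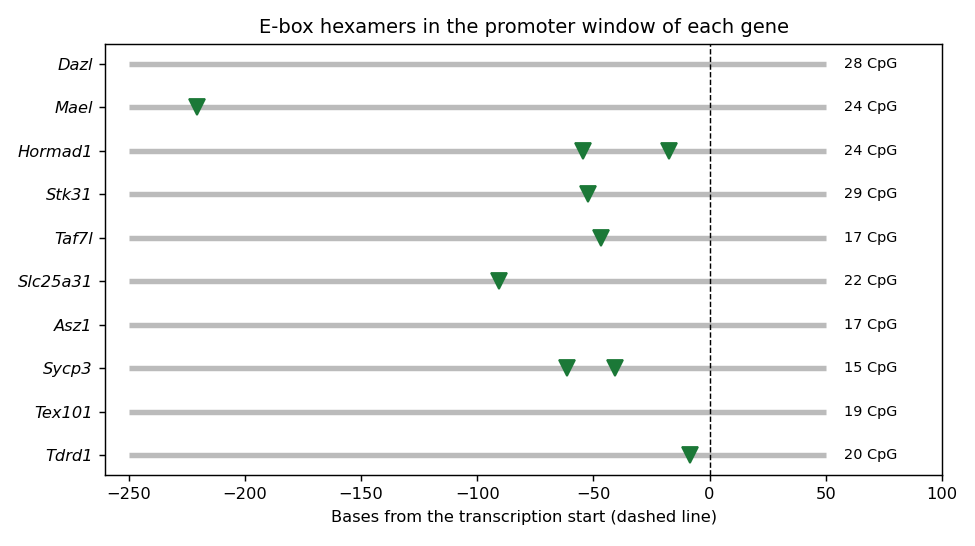
Position of the E-box hexamer CACGTG (triangles) in the first-listed RefSeq promoter window of each of the 10 genes, with distance from the start of transcription in bases on the x axis and the number of CpGs in that window at the right. The hexamer is present in 7 of the 10 genes, mostly within 100 bases before the start, and absent from Dazl, Asz1 and Tex101.

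In KO ESCs the 3 members that fell were those with the highest WT levels for their length. Mael, Dazl and Hormad1 fell to between 8.51% and 19.9% of their WT mean, and no KO ESC library overlapped a WT one for these 3. Their mean levels per kb of exon in KO ESCs were 9.03, 11.98 and 17.7 normalized counts for Mael, Dazl and Hormad1, all below Sycp3 at 34.0. In WT ESCs they were 106, 67.9 and 88.9, the highest of the 10 genes. A gene is called here when its adjusted p is under 0.05 over the 15781 genes tested, those with a mean of 10 or more. Of the 9 germ cell genes tested, 0 rose and 3 fell, against 1.31% and 1.07% of all genes tested in these directions. The 10th, Asz1, had a mean below 10.

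Of the piRNA genes, Mael fell, Tdrd1 did not pass the test, and Asz1 was too low to test. Mael (ENSMUSG00000040629, chr1:166201201-166238747), a nuage protein needed for transposon silencing, stood at 9.25, 12.7 and 24.996 normalized counts in KO ESC A, B and C, against 163, 155 and 234 in WT ESC A, B and C. The highest KO ESC library had less than the lowest WT ESC library by a wide gap, and the KO values rest on 17, 14 and 9 reads. Its log2 difference was −3.56 (SE 0.37) and was called (adjusted p = 0.0176), with −3.75 in batch A and B and −3.18 in C. Tdrd1 (ENSMUSG00000025081, chr19:56826209-56870012), a tudor protein that binds Piwi proteins in nuage, had 24.5, 36.3 and 11.1 in KO ESC A, B and C and 10.7, 11.4 and 6.59 in WT ESC A, B and C. Its KO value was above the WT value of the same letter in all 3, and KO ESC C lay inside the WT range. The difference of 1.13 (SE 0.50) was not called (adjusted p = 0.312), but was with the replicate letter as a block (adjusted p = 0.0435). Asz1 (ENSMUSG00000010796, chr6:18050964-18109061), a scaffold that ties nuage to mitochondria, had 2.18, 5.45 and 2.78 in KO ESCs and 0.715, 3.82 and 6.59 in WT ESCs. These are 1 to 6 reads a library, and the groups overlapped.

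Of the meiotic chromosome genes, Hormad1 fell and Sycp3 did not pass the test. Hormad1 (ENSMUSG00000028109, chr3:95559677-95587671), a HORMA-domain protein of the unsynapsed axis that licenses recombination, had 34.8, 31.8 and 24.996 normalized counts in KO ESC A, B and C and 124, 147 and 191 in WT ESC A, B and C. The 2 genotypes were far apart in each batch. It fell by 2.29 (SE 0.28, adjusted p = 0.0193), with −1.99 in A and B and −2.89 in C. Sycp3 (ENSMUSG00000020059, chr10:88459569-88473236), a filament protein of the synaptonemal complex, had 34.3, 36.3 and 58.3 in KO ESCs and 55.1, 67.2 and 125 in WT ESCs. Each KO library was below the WT library of its letter, while KO ESC C was above WT ESC A. The difference of −0.88 (SE 0.39) was not called (adjusted p = 0.307) and was with the block (adjusted p = 0.0233). Over 52.2% of its exon bases Sycp3 lies against Chpt1 on the other strand, and the library kit keeps no strand, so its reads are uncertain. Chpt1 had 299.8, 312 and 172 normalized counts in KO ESCs and 328, 293 and 227 in WT ESCs.

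Of the regulators of germ cell RNA and transcription, Dazl fell, and Stk31 and Taf7l did not pass the test. Dazl (ENSMUSG00000010592, chr17:50279395-50293636), an RNA-binding protein that promotes translation in germ cells, had 31.6, 36.3 and 69.4 normalized counts in KO ESC A, B and C and 254, 304 and 221 in WT ESC A, B and C. Its KO ESC range ended below the WT range, and the gap was narrower in batch C. It fell by 2.55 (SE 0.32, adjusted p = 0.0193), with −3.00 in A and B and −1.65 in C. Stk31 (ENSMUSG00000023403, chr6:49395604-49469501), a germ cell protein with tudor and kinase domains, had 57.7, 59.9 and 58.3 in KO ESCs and 99.4, 133 and 112 in WT ESCs. The KO values were nearly alike and all lay below the WT values. The difference of −0.95 (SE 0.26), −0.96 in A and B and −0.93 in C, was not called (adjusted p = 0.103), though it was with the block (adjusted p = 0.0159). Taf7l (ENSMUSG00000009596, chrX:134460118-134476490), the germ cell paralogue of a TFIID subunit, had 8.16, 9.99 and 30.6 in KO ESCs and 15.7, 19.08 and 112 in WT ESCs. Each genotype's C library was higher than its A and B, and KO ESC C overlapped the WT range. The difference of −1.19 (SE 0.79) was not called (adjusted p = 0.544) and was with the block (adjusted p = 0.0289), beside a median of −0.15 over the 559 X-linked genes tested.

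The other 2 members are late germ cell products at low level. Slc25a31 (ENSMUSG00000069041, chr3:40708855-40726096), the mitochondrial ADP/ATP carrier of the testis, had 4.90, 5.45 and 5.55 normalized counts in KO ESCs and 13.6, 12.2 and 32.9 in WT ESCs. These did not overlap, from 2 to 9 reads a KO library and 10 to 19 a WT library. The difference of −1.57 (SE 0.49) was not called (adjusted p = 0.148) and was with the block (adjusted p = 0.0272). Tex101 (ENSMUSG00000062773, chr7:24668007-24676675), a germ cell surface glycoprotein needed for sperm function, had 3.81, 0.908 and 11.1 in KO ESCs and 14.3, 12.2 and 0 in WT ESCs. Batch A and B had a difference of −2.23 and batch C one of 3.598, where WT ESC C had no read and 3 reads would make 9.88. The pooled difference of −0.29 (SE 1.18, adjusted p = 0.997) lies between these opposite values.

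**Figure D2:**
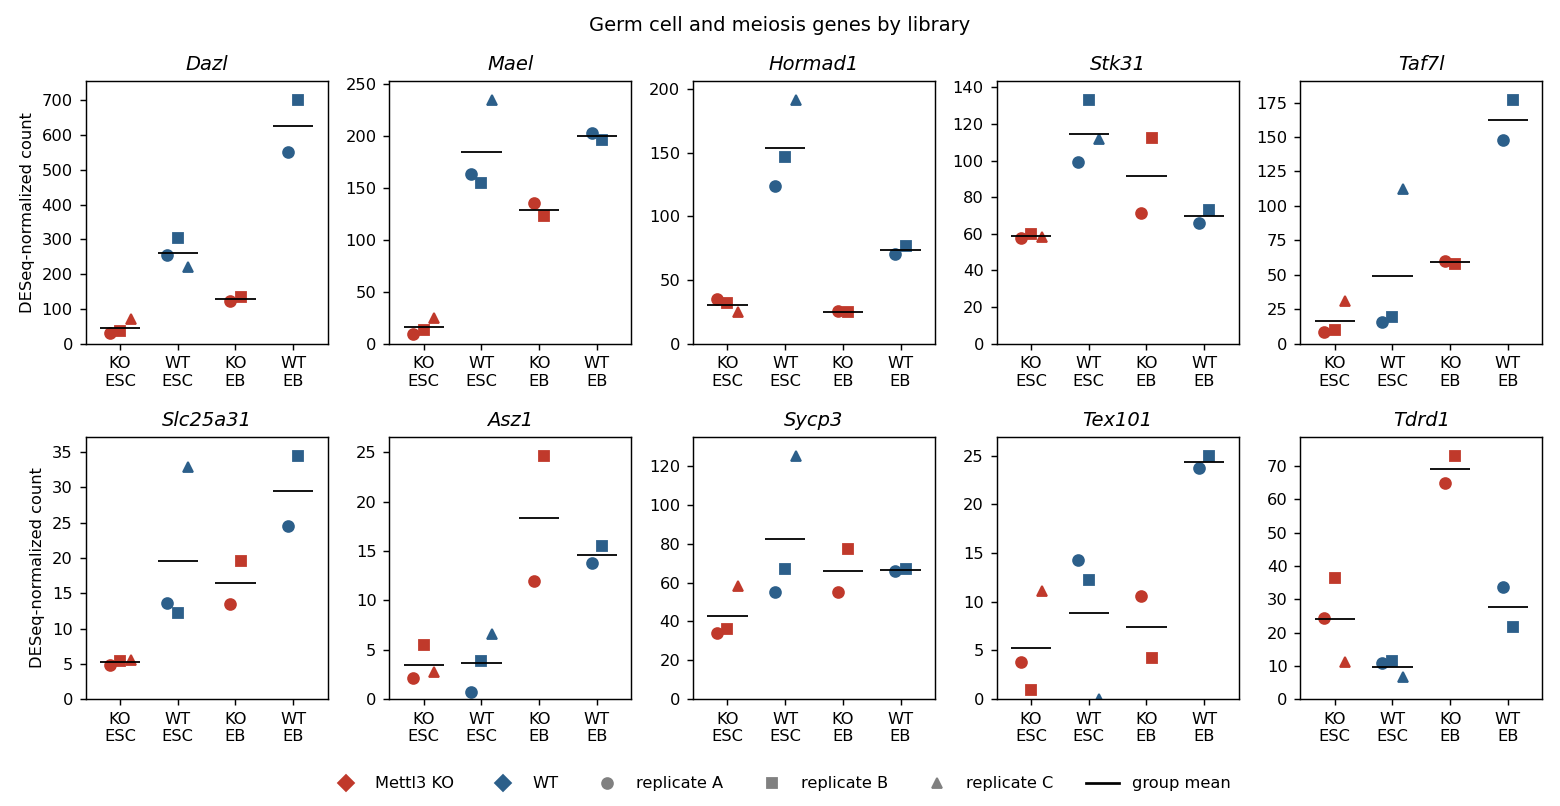
DESeq-normalized counts (y axis, a linear scale of its own for each gene) of the 10 genes in each of the 10 libraries, by genotype and cell state; circles, squares and triangles are replicates A, B and C, and lines are group means. Mael, Dazl, Hormad1, Stk31 and Slc25a31 have every KO ESC library below every WT ESC library, and Tdrd1 has both KO EB libraries above both WT EB libraries.

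Every KO ESC library was below every WT ESC library in 5 of the 10 genes (Dazl, Mael, Hormad1, Stk31 and Slc25a31), against 8.78% of all genes tested, and above in 0, against 9.23%. The KO mean was lower in 9 of the 10, where 51.5% of genes tested had a lower KO mean. These 9 include Asz1, which was not tested, and in Asz1 and Tex101 batch C went against A and B. The median difference over the 9 genes tested was −1.19, against −0.02 over all genes tested. With the replicate block 1 member rose (Tdrd1) and 7 fell, at a background of 14.0% and 15.3%. Without both C libraries 1 rose and 8 fell, at 27.4% and 27.8%. The calls of Mael, Dazl and Hormad1 were lost when any 1 of the 8 libraries lettered A or B was left out, with adjusted p then between 0.076 and 0.116. With KO ESC C alone left out, the limma adjusted p was 0.00135 for Mael, 0.00205 for Dazl and 0.00526 for Hormad1. With WT ESC C alone left out it was 0.00779, 0.0106 and 0.00793. A limma fit on the 6 ESC libraries alone called 0 of the 9 and 0.0% of genes tested. On recovered reads, DESeq2 called 5 at a background of 12.6% in either direction.

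In EBs, Dazl was the 1 member that passed the test. It had 121 and 134 normalized counts in KO EB A and B, against 552 and 699.8 in WT EB A and B, a KO mean 20.4% of the WT mean. Both KO EB libraries exceeded all 3 KO ESC libraries, and both lay below all 3 WT ESC libraries. Dazl fell by 2.27 (SE 0.39, adjusted p = 0.0345), 1 of the 9 that fell, with 0 that rose, against 1.37% of genes tested that fell and 0.469% that rose.

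Mael had 136 and 122 normalized counts in KO EB A and B, against 202 and 196 in WT EB A and B, 64.7% of the WT mean. Its KO libraries were below both WT libraries, and the difference of −0.63 (SE 0.46) was not called (adjusted p = 0.697). Tdrd1 had 65.0 and 73.0 in KO EBs and 33.7 and 21.5 in WT EBs, a KO mean at 249.8% of the WT mean in EBs, beside 250% in ESCs. The EB groups did not overlap, and the difference of 1.32 (SE 0.62) was not called (adjusted p = 0.411). Asz1 had 12.006 and 24.6 in KO EBs and 13.8 and 15.5 in WT EBs, which overlapped.

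Hormad1 had 25.4 and 24.6 normalized counts in KO EBs and 70.5 and 76.6 in WT EBs, 34.0% of the WT mean. The groups were far apart, and the difference of −1.52 (SE 0.34, adjusted p = 0.077) was called with the block (adjusted p = 0.0269). Sycp3 had 55.1 and 77.3 in KO EBs and 65.9 and 67.1 in WT EBs, so the KO libraries lay on either side of the WT ones. Its partner on the other strand, Chpt1, had 242 and 214 in KO EBs and 172 and 191 in WT EBs.

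Taf7l had 60.0 and 57.7 normalized counts in KO EBs and 148 and 176 in WT EBs, a difference of −1.44 (SE 0.97, adjusted p = 0.651) that was called with the block (adjusted p = 0.0367). Stk31 had 71.3 and 112 in KO EBs and 65.9 and 73.2 in WT EBs, which overlapped, and its mean was higher in KO EBs, where it was lower in KO ESCs. That difference of effects, 1.31 (SE 0.40), was not called (adjusted p = 0.321). Slc25a31 had 13.4 and 19.5 in KO EBs and 24.5 and 34.4 in WT EBs. Tex101 had 10.6 and 4.25 in KO EBs and 23.8 and 24.96 in WT EBs, 15 and 5 reads against 31 and 29. For Taf7l, Slc25a31 and Tex101 both KO EB libraries were below both WT EB libraries.

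**Figure D3:**
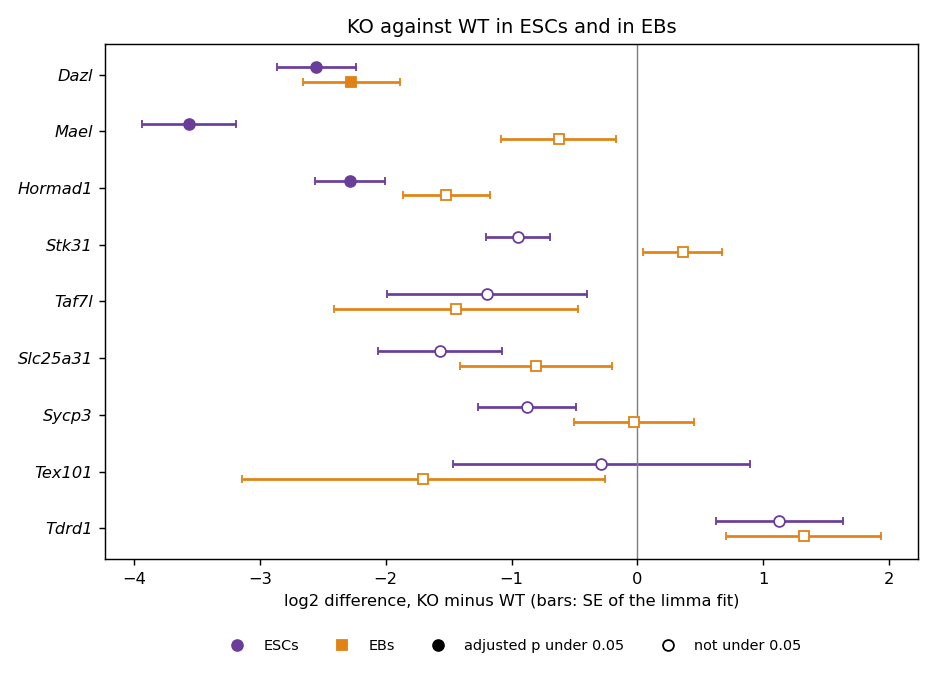
Log2 difference, KO minus WT (x axis, with the SE of the limma fit as bars), of the 9 tested genes in ESCs (circles) and EBs (squares); filled symbols have an adjusted p under 0.05. Dazl is filled in both, Mael and Hormad1 in ESCs, and Tdrd1 lies above 0 in both.

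Both KO EB libraries were below both WT EB libraries in 6 of the 10 genes, against 38.9% of all genes tested, and above them in 1, against 36.0%. With 2 libraries a group such separation was common. With the replicate block, Dazl, Hormad1 and Taf7l fell and 0 rose, at a background of 13.4% and 9.27%. Without the ESC C libraries, which lend their spread to the EB contrast, 6 fell and 1 rose, at 27.9% and 24.1%, and a fit on the 4 EB libraries alone called 6 at 49.2%. On recovered reads, DESeq2 called 2 at a background of 10.0%. The Dazl call was lost when any 1 of the 8 A or B libraries was left out, with adjusted p between 0.0582 and 0.325. WT EBs also held far more endoderm RNA: the 10 endoderm markers summed to 1725 and 1762 in KO EBs and to 119493 and 120170 in WT EBs, and 9 of the 10 fell. That count was 6 without 1 ESC library lettered A or B and 0 without any 1 EB library. Afp had no read in either KO EB library and 405 and 473 normalized counts in WT EBs. The part of this difference in the germ cell genes was not tested.

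Between EBs and ESCs, Mael rose in KO cells and did not pass the test in WT cells. In KO cells it had 136 and 122 normalized counts in EBs against 9.25, 12.7 and 24.996 in ESCs and rose by 3.07 (SE 0.42, adjusted p = 0.0315). In WT cells it had 202 and 196 in EBs against 163, 155 and 234 in ESCs, which overlapped, with a difference of 0.14 (SE 0.42, adjusted p = 0.888). The difference between the genotypes in this response, which equals the KO effect in EBs minus that in ESCs, was 2.94 (SE 0.59) and was not called (adjusted p = 0.109). It was called with the replicate block (adjusted p = 0.0138) and without both C libraries (3.13, adjusted p = 3.16e-05). The rise in KO cells was lost when any 1 A or B library was left out (adjusted p between 0.081 and 0.432) and in the fit on KO libraries alone (adjusted p = 0.216).

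In EBs against ESCs of KO cells, Mael was the 1 of 9 that rose, and 0 fell, against 0.45% and 0.355% of genes tested. In WT cells 0 rose and 0 fell by limma, against 2.01% and 0.475%, with 5 of the 9 at an unadjusted p under 0.05, against 14.5% of genes tested. There edgeR called 0 at a background of 2.78%, and DESeq2 called Dazl as higher and Hormad1 as lower in WT EBs at 9.84%. In KO cells DESeq2 called 3 at 9.16%. The replicate block takes EBs against ESCs at the level of letter A, so the sizes it tests are not those printed here. With it the count was 2 in KO cells at a background of 8.33% and 1 in WT cells at 9.52%. Without both C libraries the count was 6 at 47.3% and 6 at 46.1%. Dazl was higher in EBs than in ESCs in both genotypes without overlap, by 1.55 in KO (adjusted p = 0.0935) and 1.27 in WT (adjusted p = 0.13). Taf7l was higher in both, by 2.03 in KO (adjusted p = 0.378) and 2.27 in WT (adjusted p = 0.285). Both were called with the block, at the level of letter A (adjusted p = 0.0242 and 0.0179). Hormad1 was lower in WT EBs than in WT ESCs without overlap, by −1.03 (adjusted p = 0.163), and in KO cells its EB and ESC values overlapped. The mean of KO EBs was below that of KO ESCs in 1 of the 10 genes, against 52.9% of genes tested, and the mean of WT EBs below that of WT ESCs in 3, against 52.0%.

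The levels in the 4 groups fell into several orders. Dazl ran from WT EBs through WT ESCs and KO EBs down to KO ESCs, with no overlap between neighbours. Mael had its lowest group in KO ESCs and the next in KO EBs, while WT EBs lay inside the range of WT ESCs. Hormad1 was highest in WT ESCs, then WT EBs, and the 2 KO groups overlapped at the bottom. Tdrd1 was highest in KO EBs and lowest in WT ESCs. Per kb of exon, the mean level ran from 1.23 (Asz1) to 34.0 (Sycp3) in KO ESCs, 1.31 (Asz1) to 106 (Mael) in WT ESCs, 4.48 (Tex101) to 74.4 (Mael) in KO EBs and 5.07 (Tdrd1) to 164 (Dazl) in WT EBs. The genes listed as spermatid genes were mostly near the floor, with 12 of 13 under a mean of 10 and Akap4 without a read in any library.

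Other genes of the germ cell programme were read through lists by role. Of 82 genes on 6 lists, 81 were measured and 53 tested, and in KO ESCs 0 rose and 5 fell by limma, against 1.31% and 1.07% of genes tested. By edgeR 0 rose and 5 fell, against 1.39% and 0.76%, and by DESeq2 4 rose and 11 fell, against 6.7% and 5.94%. By limma 17 of the 53 had an unadjusted p under 0.05, against 17.2% of genes tested. Rnf17, a tudor protein of nuage, was 1 of 14 tested piRNA genes and had 308, 357 and 303 normalized counts in KO ESCs and 952, 1247 and 662 in WT ESCs, a fall of 1.52 (adjusted p = 0.0314). Hormad2, the paralogue of Hormad1 on the same axis and 1 of 8 axis genes tested, had 20.1, 19.07 and 19.4 in KO ESCs and 119, 114 and 109 in WT ESCs, a fall of 2.49 (adjusted p = 0.0183). Dmc1, the meiotic recombinase and 1 of 18 tested for meiotic entry and recombination, had 28.8, 32.7 and 52.8 in KO ESCs and 187, 219.8 and 178 in WT ESCs, a fall of 2.37 (adjusted p = 0.0187). None of these overlapped between genotypes.

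Of 4 tested germ cell transcription factors 2 fell by limma, against 1.07% of genes tested. Sohlh2, a bHLH factor of early germ cell differentiation, had 38.6, 34.5 and 38.9 normalized counts in KO ESCs and 219.6, 227 and 152 in WT ESCs, a fall of 2.36 (adjusted p = 0.0123). Tcfl5, a bHLH factor of spermatocytes, had 127, 109 and 183 in KO ESCs and 433, 350.4 and 336 in WT ESCs, a fall of 1.44 (adjusted p = 0.032). Of 8 genes of primordial germ cell specification 0 rose and 0 fell by limma and edgeR. By limma 2 had an unadjusted p under 0.05, against 17.2% of genes tested, and DESeq2 called 1, against 12.6% in either direction. The list named repressors of germline genes also holds Tet1 and Tet2, which act in the removal of DNA methylation. Of its 21 genes, Dnmt1 among them, 0 rose and 0 fell by limma and edgeR, with a median of −0.04. Of these 21, 2 had an unadjusted p under 0.05 by limma and 1 was called by DESeq2, against the same shares of 17.2% and 12.6%. The maintenance methyltransferase Dnmt1, the most abundant of this list, had 3712, 3675 and 1641 in KO ESCs and 5267, 5039 and 2283 in WT ESCs, lower in each batch. Its difference of −0.48 was not called (adjusted p = 0.687) and was with the block (adjusted p = 0.00541).

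**Figure D4:**
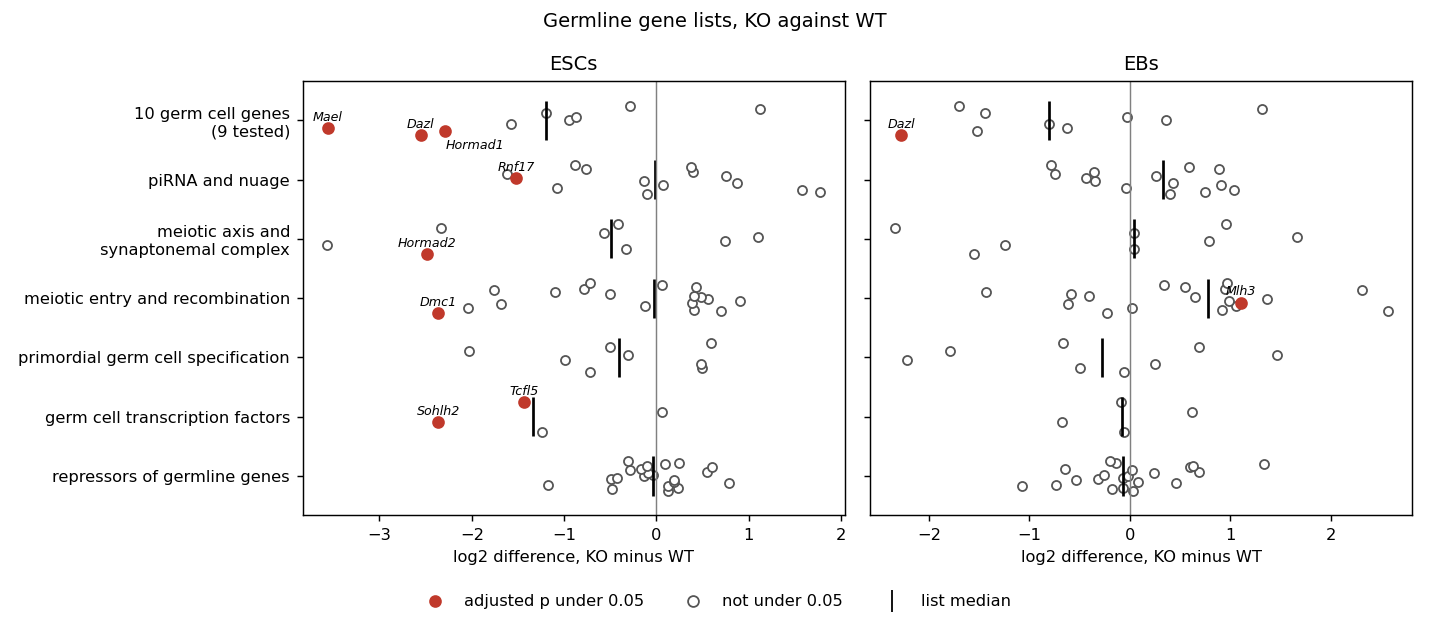
Log2 difference, KO minus WT (x axis), of each tested gene of 7 lists (y axis) in ESCs and EBs, with calls filled and list medians as bars. In ESCs the 8 filled genes all lie below 0, and in EBs Dazl is filled below 0 and Mlh3 above it.

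The medians over the lists in KO ESCs were −0.02 for piRNA genes, −0.49 for the axis, −0.03 for entry and recombination and −1.34 for the transcription factors, against −0.02 over all genes tested. The piRNA list had 7 genes above 0 and 7 below, and the entry and recombination list 9 and 9. Among the most abundant, the piRNA-linked Tex19.1 had 666, 648 and 842 normalized counts in KO ESCs and 1027, 1034 and 2144 in WT ESCs (−0.88, adjusted p = 0.165). The meiotic cohesin Stag3 had 704, 772 and 286 in KO ESCs and 210.3, 209.9 and 748 in WT ESCs, so batch C went against A and B (0.74, adjusted p = 0.615). Hsf2bp, which serves recombination, had 788, 799 and 636 in KO ESCs and 587, 585 and 504 in WT ESCs (0.40, adjusted p = 0.214). Kit, the receptor of primordial germ cells, had 1024, 1037 and 97.2 in KO ESCs and 1418, 1508 and 385 in WT ESCs (−0.995, adjusted p = 0.734). Over the 6 lists the block gave 6 rises and 16 falls among the 53, against 14.0% and 15.3% of genes tested, and the 5 calls above were lost when any 1 A or B library was left out, at adjusted p between 0.0736 and 0.153. They were also lost in the fit on ESC libraries alone (adjusted p = 0.314 each), and those of Rnf17 and Tcfl5 with no filter beyond 1 read (adjusted p = 0.0647 and 0.0695).

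In KO EBs 1 of the 53 rose and 0 fell by limma, against 0.469% and 1.37% of genes tested, with 12 at an unadjusted p under 0.05, against 13.9%. There edgeR gave 2 and 0, against 0.469% and 1.31%, and DESeq2 gave 7 and 2, against 3.81% and 6.2%. Mlh3, a mismatch repair protein of crossovers, had 474 and 495 normalized counts in KO EBs and 219 and 229.8 in WT EBs, a rise of 1.11 (adjusted p = 0.0261). The list median for entry and recombination was 0.78 in EBs, with 13 of 18 above 0, while that of the 9 germ cell genes was −0.81, with 7 of 9 below 0. Hsf2bp had 662 and 686 in KO EBs and 342 and 371 in WT EBs (0.92, adjusted p = 0.0539, and 0.00459 with the block). Among paralogues of the members, the somatic ADP/ATP carrier Slc25a4 fell by 1.59 in KO EBs (adjusted p = 0.0274), with 1089 and 1069 in KO EBs and 3341 and 3177 in WT EBs. Each of these 2 calls was lost when any 1 A or B library was left out.

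Between EBs and ESCs of KO cells, 3 of the 53 rose and 1 fell, against 0.45% and 0.355% of genes tested. Mov10l1, a helicase needed to make piRNAs, had 162 and 196 normalized counts in KO EBs and 33.7, 30.9 and 27.8 in KO ESCs (2.501, adjusted p = 0.0285). Sohlh2 had 166 and 172 in KO EBs and 38.6, 34.5 and 38.9 in KO ESCs (2.15, adjusted p = 0.0259). Stra8, the retinoic acid target that starts meiosis, had 104 and 97.6 in KO EBs and 5.99, 9.99 and 11.1 in KO ESCs (3.38, adjusted p = 0.0288). Dppa3, a primordial germ cell and naive ESC gene, had 37.4 and 34.8 in KO EBs and 125, 148 and 175 in KO ESCs, and fell by 2.00 (adjusted p = 0.0328). Of the repressors, Uhrf1, the cofactor of Dnmt1, fell by 1.54 (adjusted p = 0.0444, and 0.0608 by edgeR). These 5 calls were lost when any 1 A or B library was left out and in the fit on KO libraries alone (adjusted p between 0.182 and 0.198), and that of Dppa3 with no filter beyond 1 read (adjusted p = 0.0519). In WT cells 0 of the 53 rose by limma, at a background of 2.01%, 1 by edgeR at 2.43% and 5 by DESeq2 at 6.47%. By limma 11 had an unadjusted p under 0.05 in either direction, at 14.5%. Prdm14, a factor of germ cell specification and of naive ESCs, had 181 and 189 in WT EBs and 690.3, 691 and 497 in WT ESCs, and fell by 1.74 (adjusted p = 0.00791), as did Uhrf1 by 1.66 (adjusted p = 0.0172). Leaving out 1 A or B library ended the Prdm14 call for 2 of 8 and the Uhrf1 call for 4 of 8, and a fit on WT libraries alone ended both (adjusted p = 0.0883 and 0.158).

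Stra8 was the 1 listed germline gene called for the difference of KO effects, against 0.0634% of genes tested with a positive difference and 0.412% with a negative one. It had 5.99, 9.99 and 11.1 normalized counts in KO ESCs and 33.6, 42.7 and 23.1 in WT ESCs, and 104 and 97.6 in KO EBs and 18.4 and 20.7 in WT EBs. KO was lower than WT in every ESC library and higher than WT in every EB library. The difference of effects was 4.08 (SE 0.62, adjusted p = 0.047), 4.46 without both C libraries. The call was lost when any 1 A or B library was left out, with a pseudocount of 0.25 (adjusted p = 0.0546) and with no filter beyond 1 read (adjusted p = 0.0522). Of the 9 germ cell genes 0 were called for this difference by limma and by edgeR (background 0.532%), with 2 at an unadjusted p under 0.05 by limma (background 8.55%), and DESeq2 called Mael and Stk31 at 4.99%. With the block 1 was called at 7.79%, and without both C libraries 3 at 36.1%.

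The 10 genes varied with Dazl to different degrees over the 10 libraries, which share genotype, cell state and batch. On log2 values the correlation with Dazl was 0.901 for Mael, 0.859 for Slc25a31, 0.743 for Taf7l, 0.629 for Hormad1 and 0.626 for Sycp3. It was 0.552 for Tex101, 0.454 for Stk31, 0.353 for Asz1 and −0.194 for Tdrd1. The order depended on the C libraries. Without both it was 0.913 for Tex101, 0.910 for Mael and for Slc25a31, 0.817 for Sycp3 and 0.769 for Taf7l. For Hormad1, Stk31, Asz1 and Tdrd1 it was then 0.650, 0.393, 0.305 and −0.305. Of 10081 tested genes outside the list with a mean of 100 or more, those most like Dazl were G2e3 and Purb (both 0.973), Npl (0.969), Slc25a12 (0.968) and Iqcg (0.963). Npl averaged 22.8 normalized counts in KO ESCs and 132 in WT ESCs, and 56.3 in KO EBs and 384 in WT EBs, and Iqcg 55.4 and 166 in KO and WT ESCs and 79.7 and 229 in KO and WT EBs. A correlation does not measure the size of a change. These genes were picked by likeness to Dazl in the same libraries, so their differences by genotype are not independent of that choice. The log2 difference in KO ESCs was −0.82 for G2e3, −0.63 for Purb and −0.79 for Slc25a12, against −2.88 for Npl and −1.60 for Iqcg. By limma the adjusted p was 0.0462, 0.0485, 0.0436, 0.0613 and 0.0396 in this order, so Npl was not called. By edgeR it was 0.063, 0.0685, 0.0593, 0.0913 and 0.049. In EBs these differences were −0.75, −0.50 and −0.48, against −2.76 and −1.49. None was called there by limma (adjusted p = 0.107, 0.174, 0.282, 0.138 and 0.0851). Purb lies on chromosome 11, where the median difference over 1344 genes tested was −0.23 in ESCs and −0.44 in EBs.

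The core of the N6-methyladenosine consensus, GGAC, was counted on the longest coding transcript of each gene in the GENCODE reference. It occurred 2 times in Mael, 6 times in Dazl and 10 times in Hormad1, or 1.18, 2.02 and 6.62 times per kb. The 10 genes ran from 0.517 per kb in Taf7l to 6.62 per kb in Hormad1, with a median of 2.88, against a median of 4.21 over 13363 tested coding genes with quartiles of 3.09 and 5.53. Of the 3 genes that fell in KO ESCs, Mael and Dazl were below the lower quartile and Hormad1 was above the upper one. A match in letters is not a methylated site.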

How the data were processed

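Gene expression was measured by RNA-seq in 10 libraries with a TruSeq RNA kit that does not keep strand, per the labels' protocols. Per the submitters' processing notes, the tools were HTSeq 0.6.0, TopHat2 2.0.10 with Bowtie, CASAVA 1.8.2 and DESeq, on build mm10. The annotation release, strand setting and filters are not given in the sources used here. The deposited values are a normalized signal, gene counts that the authors divided by 1 DESeq size factor per library. Each was a whole multiple of the value of 1 read within 0.01 (100% of values), which returned the read numbers.

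Symbols from GENCODE on GRCm38 were found for 37693 of 39179 identifiers, and the counter's 5 summary lines were dropped. A pseudocount of 1 was added before taking log2, so changes of low genes are understated. Genes with a mean of 10 or more (15781) were fitted with limma 3.58.1 (trended, robust variances) on 4 group means with 6 residual degrees of freedom. The 5 contrasts were two-sided, with Benjamini-Hochberg adjustment over all genes tested and a threshold of 0.05. EB groups borrow their spread from all 4 groups. The fits were tested on simulated data that held no replicate effect, so that test does not cover the spread of the C libraries. Alternatives were edgeR 4.0.16 with TMM and DESeq2 1.42.0 on recovered reads, other pseudocounts and filters, a replicate block, each library left out, both C libraries left out, and fits on the groups compared.

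The ESC letters pair the samples by the rule that every same-letter correlation of deviations from the group mean is over 0.1. KO and WT libraries of 1 letter gave r of 0.845, 0.828 and 0.858. Letters A and B across genotypes gave 0.809 and 0.812, so the pairing rests mostly on C. In EBs same letters gave 0.369 and different letters −0.369. These are equal and opposite because each EB group has 2 libraries. The block holds a term for the EB letters too. Members and lists were chosen with earlier results of these data known. Genes named from a list were those called in a contrast, up to 4 per direction, and the most abundant of the list. The 1 WT embryonic fibroblast library was not analysed here.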

Additional observations from a re-analysis of the deposited data

Results flagged for a closer look

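The effect of the Mettl3 knockout differed between EBs and ESCs, by a test of the difference itself, for Stra8 among the germline genes and for 6 of the 10 endoderm markers measured beside them. For Stra8 the KO effect in EBs minus that in ESCs was 4.08 on the log2 scale, with KO above WT in EBs and below WT in ESCs. For the endoderm markers it was −5.79 for Lamb1, −6.45 for Dab2, −8.98 for Cubn, −5.73 for Col4a1, −7.41 for Lama1 and −5.77 for Gata4. Lama1 had 176 and 186 normalized counts in KO EBs and 37701 and 38512 in WT EBs, and 1726, 1795 and 289 in KO ESCs and 1517, 1578 and 705 in WT ESCs. The calls of Stra8 and Lama1 were lost when any 1 of the 8 A or B libraries was left out. Under the same 8 leave-outs Cubn and Dab2 were called in 1 each (adjusted p up to 0.2501 and 0.169) and Lamb1 in 4. The count of endoderm markers called was 1 to 4 without 1 ESC library lettered A or B and 0 without any 1 EB library. Cubn was also not called among genes with a mean of 50 or more (adjusted p = 0.058), nor Lama1 with a pseudocount of 0.25 (adjusted p = 0.0517).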

How the results depend on the processing

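The counts below are of the 9 tested germ cell genes called in KO against WT ESCs, KO against WT EBs, EBs against ESCs in WT, EBs against ESCs in KO, and for the difference of KO effects, in this order. They were 3, 1, 0, 1 and 0 in limma, and the same in edgeR, with other pseudocounts and with other filters. Of all genes tested limma called 2.38%, 1.84%, 2.48%, 0.805% and 0.475% in either direction. The shares by edgeR were 2.15%, 1.78%, 2.78%, 1.22% and 0.532%. DESeq2 gave 5, 2, 2, 3 and 2, against 12.6%, 10.0%, 9.84%, 9.16% and 4.99% of genes tested. The fit without both C libraries gave 9, 7, 6, 6 and 3. There 55.2% of genes tested were called in KO against WT ESCs. In KO against WT EBs 24.1% were called as higher and 27.9% as lower. The other shares, in order, were 46.1%, 47.3% and 36.1%. Fits on the groups compared gave 0, 6, 0 and 0, and were not run for the difference. For KO against WT their shares of genes tested were 0.0% in ESCs and 49.2% in EBs. With 1 library left out the counts ranged over 0 to 4, 0 to 2, 0 to 1, 0 to 2 and 0 to 1, with 0 in all 5 wherever the library was an A or B. Shares of all genes are not set beside these ranges, which are not read as a result about the members.

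The replicate block, which has terms for the letters of ESCs and of EBs, gave counts of 8, 3, 1, 2 and 1. It called 29.3%, 22.7%, 9.52%, 8.33% and 7.79% of genes tested. It takes EBs against ESCs at the level of letter A. There it gave 0.037 for Sycp3 in WT cells, which was −0.22 without the block. The block ended none of the calls named in the report for a single gene. The single-gene calls lost without an A or B library kept an adjusted p under 0.05 without KO ESC C or WT ESC C alone.

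None of the values that turned sign was called in the limma fit. The Taf7l difference of effects (−0.25) was 0.16 by edgeR, 0.17 by DESeq2 and −1.12 to 0.30 with a library left out. Sycp3 in KO against WT EBs (−0.03) was 0.021 by edgeR and −0.27 to 0.21 with a library left out. Sycp3 in WT EBs against ESCs was 0.13 without both C libraries and −0.46 to 0.13 with a library left out. Tex101 in ESCs (−0.29) was 0.079 with a pseudocount of 0.25 and −1.56 to 0.40 with a library left out, and its difference of effects (−1.41) was 0.53 without both C libraries. The Tdrd1 difference of effects (0.20) was −0.030 without both C libraries and −0.25 to 0.56 with a library left out. With a library left out, Kit in ESCs (−0.995) ran from −1.64 to 0.14, Tcfl5 in EBs from −0.24 to 0.053, Gapdhs in ESCs from −0.56 to 0.088 and Slc25a5 in ESCs (−0.66) from −1.48 to 0.20. The cause was not tested. Depth limits Asz1, Tex101 and Slc25a31, with under 10 reads in every KO ESC library.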
